A study of Drosophila melanogaster with 36 samples.

Results

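The nascent transcription of control Drosophila melanogaster ovaries was set beside the RNA that accumulates in the same tissue, in bins of 1 kb along the dm3 assembly. Nascent RNA was read by global nuclear run-on sequencing (GRO-seq), steady-state RNA by sequencing of total RNA after removal of ribosomal RNA (RNA-seq), and the polymerase by chromatin immunoprecipitation (ChIP) of RNA polymerase II (Pol II). A bin was described where its mappability index was at least 0.5 and it had a GRO-seq signal of at least 1 or a mean RNA-seq signal of at least 0.5. These rules kept 59860 of 139714 bins, or 51.0% of the 117264 bins that passed on mappability. Of the bins kept, 36431 overlapped an annotated exon, 23429 did not, and 2797 of either kind carried the flag for heterochromatin, the compact repeat-rich part of the genome.

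In a nuclear run-on, engaged polymerases are allowed to extend their transcripts with labelled nucleotides, so the signal follows transcription itself. RNA-seq of total RNA follows what is left after processing and decay, so that introns, which are transcribed and then removed, are usually strong in the first assay and weak in the second. Piwi-interacting RNAs (piRNAs) of the ovary silence transposons and are cut from long transcripts of discrete loci, the piRNA clusters. Dual-strand clusters are transcribed on both strands in germline cells and are bound by Rhino, a relative of the heterochromatin protein HP1, whereas uni-strand clusters such as flamenco are transcribed from 1 strand with little Rhino.

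All flies were females of 4 to 6 days kept at 25 degrees Celsius, and every library used here came from whole ovaries with a germline knockdown, of a control target or of rhino, whose driver and hairpins are not given in the sources used here. The control had 1 GRO-seq library, 2 RNA-seq libraries, 1 library of Pol II ChIP with an antibody to its C-terminal repeat, and 1 library of small RNA of 18 to 29 nt. The control Rhino ChIP and the input were averages of 2 libraries as deposited. The rhino knockdown had 1 library each of GRO-seq and RNA-seq. Whole ovaries hold germline and somatic follicle cells, so fewer cells of a type and less RNA per cell cannot be told apart.

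The signal of a bin was the number of reads scaled to the library total, divided by mappability, plus a small constant. Library totals were inferred from the smallest step of the signal. They were 7070000 reads for GRO-seq, 110810011 and 36290002 for the RNA-seq libraries and 23819999 for Pol II. The reads in the bins came to 102.4%, 110.8%, 110.7% and 103.8% of these totals, which are thus scale factors and not counts of the reads in the bins. A single GRO-seq read in a fully mappable bin was therefore worth 0.141 units, against 0.00902 and 0.0276 units in the RNA-seq libraries, so weak bins were measured least precisely in GRO-seq. The assays have no common scale. The log2 ratio of GRO-seq over RNA-seq was therefore centred on the median of euchromatic exon bins, separately for each RNA-seq library, and a bin was called shifted where it lay at least 4-fold from that centre against both libraries. With 1 GRO-seq library against 2 RNA-seq libraries the smallest exact p is 1 in 3, and bins are not replicates, so no test was made and the spread between the RNA-seq libraries is given instead.

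The main contrast was between bins with and without an exon, the latter from introns and from the space between genes, which the table does not separate. Bins without an exon in euchromatin had a median GRO-seq signal of 4.49 and median RNA-seq signals of 0.181 and 0.368 in the 2 libraries (n = 21298 bins). Euchromatic exon bins had a median GRO-seq signal of 8.02 and RNA-seq signals of 7.73 and 10.5 (n = 35765). Among the bins kept, the nascent medians thus differed by less than 2-fold, whereas the RNA-seq medians of exon bins were higher by more than an order of magnitude in each library. The level rule kept 69.8% of the exon and 36.1% of the non-exon bins, and over all mappable euchromatic bins the nascent gap was wider. There the median GRO-seq was 4.202 in exon and 0.383 in non-exon bins, with mean GRO-seq of 12.6 and 5.95, and the median RNA-seq was 1.71 and 0.0513. The centred log2 ratio of euchromatic non-exon bins was 3.73 and 3.56 against the 2 libraries, and 97.4% of these bins lay above the exon median. Against the mean of the libraries it was 3.68, a 12.8-fold shift towards nascent RNA. The size of this shift depended on the settings, with a centred log2 ratio of 2.10 at a pseudocount of 1 and of 0.82 over all mappable bins without the level rule.

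Over all bins kept, 29031 (48.5%) were shifted towards nascent RNA and 4523 (7.56%) towards steady-state RNA. Without RNA-seq library 2, and so against library 1 alone, the latter count was 6966. The balance of the 2 counts depended on the centre, since with the ratio centred on all bins kept instead of euchromatic exon bins 7295 bins were shifted towards nascent and 17825 towards steady-state RNA. Centred on euchromatic exon bins again, of the euchromatic non-exon bins, 18484 (86.8%) were shifted towards nascent RNA and 58 (0.272%) towards steady-state RNA, against 24.9% and 12.2% of the euchromatic exon bins. Conversely, 98.5% of all bins shifted towards steady-state RNA held an exon, and 70 did not. The RNA-seq libraries differed from each other by a median of 0.55 on the log2 scale, and by at least 4-fold in 1285 bins (2.15%), while the median distance of a bin from the centre was 2.65.

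The way bins were kept fixed part of this contrast. Of the bins kept, 22001 passed on GRO-seq alone, and the lowest centred log2 ratio among them was 1.11, so they had to lean towards nascent RNA. Another 1859 bins passed on RNA-seq alone, with a highest ratio of 0.93. Among the bins that passed on both signals the median ratio was 3.25 in euchromatic non-exon bins (5898 bins) and -0.45 in euchromatic exon bins (28661 bins), so the gap between the classes was also present where both assays had passed. Just inside the GRO-seq threshold, at a signal of 1 to 1.2, 1823 bins had a median GRO-seq of 1.09 and RNA-seq of 0.0957. Just outside it, 4107 bins had medians of 0.817 and 0.0556.

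**Figure D1:**
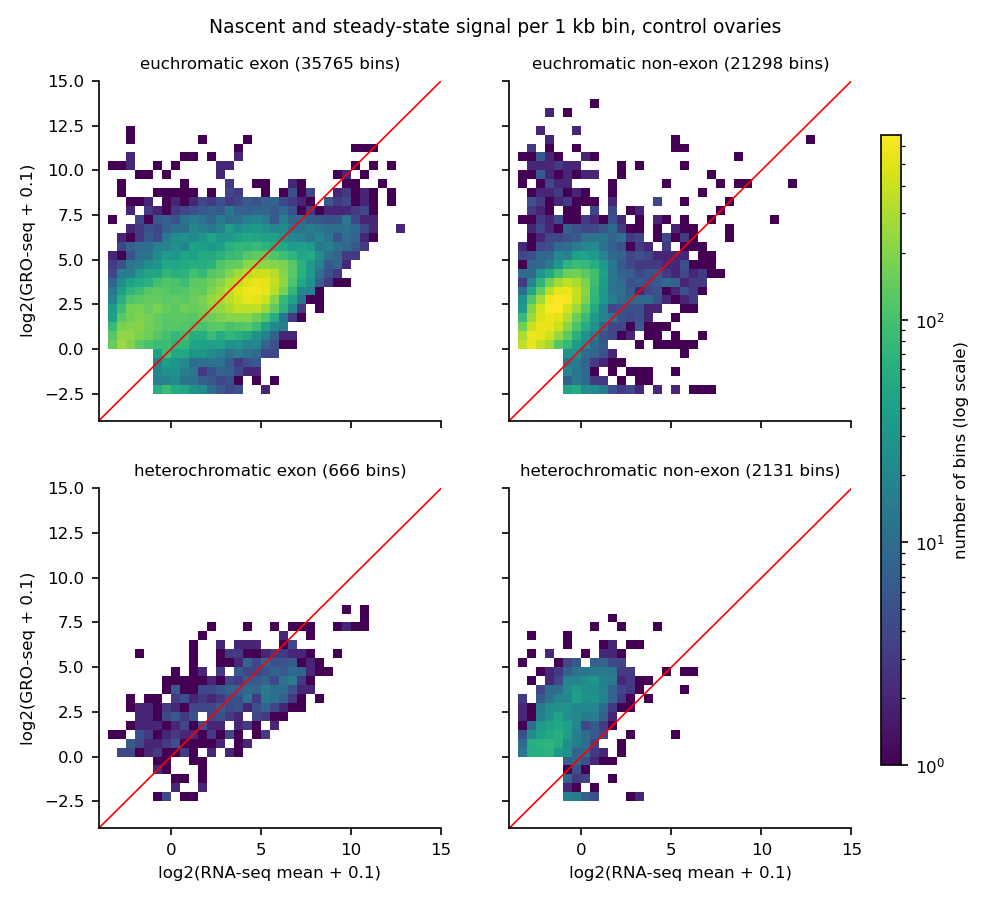
Number of 1 kb bins (colour, log scale) by log2 RNA-seq signal (x axis, mean of 2 libraries, plus 0.1) and log2 GRO-seq signal (y axis, 1 library, plus 0.1) in 4 classes of bin, with the line of equal signal in red. Euchromatic exon bins spread on both sides of the line, with medians of 8.02 in GRO-seq and 7.73 and 10.5 in RNA-seq. Of these bins 24.9% were shifted towards nascent and 12.2% towards steady-state RNA. Non-exon bins mostly lie above the line, and the empty lower left corner was removed by the level rule.

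Heterochromatic bins showed the same division by exons at another balance of signals. Heterochromatic exon bins, which belong to genes embedded in repeat-rich sequence, had a median GRO-seq of 11.1 and RNA-seq of 19.4 and 13.4 (n = 666). Their centred ratio was -0.86 and -0.05 against the 2 libraries, so its distance from euchromatic exons (-0.39 against the mean) was smaller than the SD of 0.58 between libraries. Heterochromatic non-exon bins had a median GRO-seq of 3.37 and RNA-seq of 0.308 and 0.506 (n = 2131), a centred ratio of 3.05 and 3.02, and 72.3% of them were shifted towards nascent RNA. Summed over all mappable bins, non-exon sequence held 35.5% of the GRO-seq signal and 3.48% and 3.41% of the RNA-seq signal in the 2 libraries.

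Pol II correlated more strongly with nascent than with steady-state signal across bins. Over the bins kept, Spearman's rho was 0.76 between GRO-seq and Pol II, 0.55 between RNA-seq and Pol II and 0.53 between GRO-seq and RNA-seq (n = 59860 bins, which share the mappability divisor and DNA copy number and are not independent). The RNA-seq libraries correlated with each other at 0.95. Among bins past both thresholds, the rho of GRO-seq and RNA-seq was 0.30 and that of GRO-seq and Pol II was 0.74 (n = 36000). The median log2 Pol II over input was -0.36 in euchromatic exon bins, -0.98 in euchromatic non-exon bins, 0.06 in heterochromatic exon bins and -0.92 in heterochromatic non-exon bins. Heterochromatic exon bins had the lower median input, 6.58 against 10.8 in euchromatic exon bins. Their median Pol II before division by input was also lower, 6.50 against 7.53.

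Nascent signal was lower farther from annotated exons, and steady-state signal dropped mostly in the first step. In euchromatin the median GRO-seq of the bins kept was 5.33 in bins directly next to an exon bin, 4.34 at 3 to 5 kb and 2.93 beyond 20 kb. RNA-seq library 1 went from 7.73 in exon bins to 0.201 next to them and 0.154 beyond 20 kb, and library 2 from 10.5 to 0.368 and 0.396. The centred ratio went from 3.83 next to exon bins to 3.29 beyond 20 kb. Among bins past both thresholds it fell further, from 3.44 (2350 bins) to 2.13 (165 bins). In heterochromatin GRO-seq went from 7.40 next to exon bins to 1.53 beyond 20 kb, with ratios of 3.34 and 2.63, and of 3.25 and 2.26 past both thresholds. The share of mappable bins that passed the level rule also fell, from 47.5% to 23.8% in euchromatin and from 59.5% to 16.9% in heterochromatin, so the medians describe a shrinking part of the sequence.

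**Figure D2:**
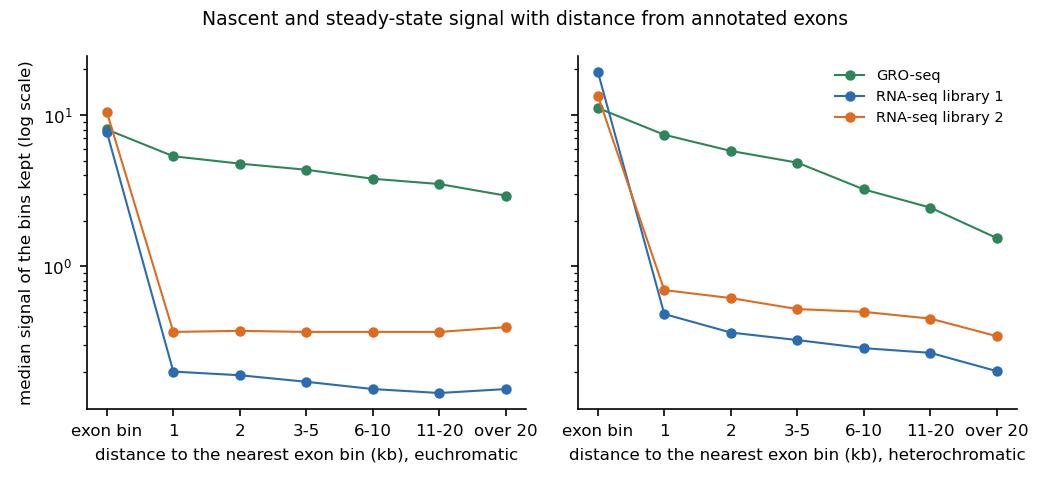
Median signal of the bins kept (y axis, log scale) by distance in kb to the nearest bin with an annotated exon (x axis), for GRO-seq and the 2 RNA-seq libraries, in euchromatin (left) and heterochromatin (right). RNA-seq library 1 drops from 7.73 to 0.201 within the first kb of euchromatin, whereas GRO-seq goes from 8.02 to 5.33.

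By the medians of the bins kept, the chromosome arms resembled each other, and chromosome 4 stood apart from them. Non-exon bins had a median centred ratio of 3.72 on 2L, 3.70 on 2R, 3.65 on 3L, 3.78 on 3R and 3.49 on X. Exon bins on these arms lay between -0.09 and 0.04. Summed signals were less alike, with GRO-seq over RNA-seq of non-exon sequence from 3.93 on X to 20.7 on 2R. On chromosome 4, the small and largely heterochromatin-like chromosome of flies, exon bins had a median GRO-seq of 9.55, RNA-seq of 4.46 and 4.36, and a ratio of 0.66 (0.41 and 0.81 against the 2 libraries, n = 604). Its non-exon bins had a ratio of 3.14 (n = 259), and Pol II over input was above 0 in both classes of its bins, with log2 medians of 0.51 and 0.26, against values from -0.44 to -0.29 in exon bins and from -1.06 to -0.90 in non-exon bins of the other arms. Only 3 of 127 mappable bins of the assembled heterochromatin of Y were kept, the chromosome that these female flies lack.

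Non-exon bins bound by Rhino had a smaller nascent excess than other non-exon bins. A bin was called bound where the control Rhino ChIP was at least 4-fold over input, a measure that took no part in keeping bins. The 495 bound non-exon bins had a median GRO-seq of 1.99 and RNA-seq of 0.515 and 0.658, with centred ratios of 1.79 and 2.03. The 22934 non-exon bins without Rhino had a GRO-seq of 4.49 and RNA-seq of 0.182 and 0.368, with ratios of 3.71 and 3.54. Among the bins kept, bound bins thus had the lower nascent median and the higher steady-state median, against each RNA-seq library. The level rule kept 40.5% of the bound and 35.9% of the other mappable non-exon bins. In euchromatin it kept 86.1% and 35.9%, so the order of the nascent medians need not hold over all mappable bins. A shift towards nascent RNA was called in 38.4% of the bound and 86.5% of the other bins.

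This difference did not rest on the named piRNA clusters, and among all bins kept it was larger in euchromatin. Outside the 10 listed regions the 409 bound non-exon bins had a centred ratio of 2.05. In euchromatin the ratio was 1.79 in 229 bound bins and 3.69 in 21069 others, and in heterochromatin 2.19 in 266 bound bins and 3.19 in 1865 others. Among bins past both thresholds the ratios were 1.69 with Rhino (225 bins) and 3.26 without (6535 bins). There the gap was of similar size in euchromatin (1.72 and 3.29) and heterochromatin (1.67 and 3.03). Against RNA-seq library 1 it was larger in euchromatin (1.37 and 3.47, next to 1.69 and 3.07). Against library 2 it was larger in heterochromatin (1.46 and 2.92, next to 1.88 and 3.06). The 155 bound exon bins had a ratio of 1.52, above the exon median. The 110 bins kept that the authors flagged as major clusters had a ratio of 1.45, with RNA-seq medians of 1.39 and 1.37.

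**Figure D3:**
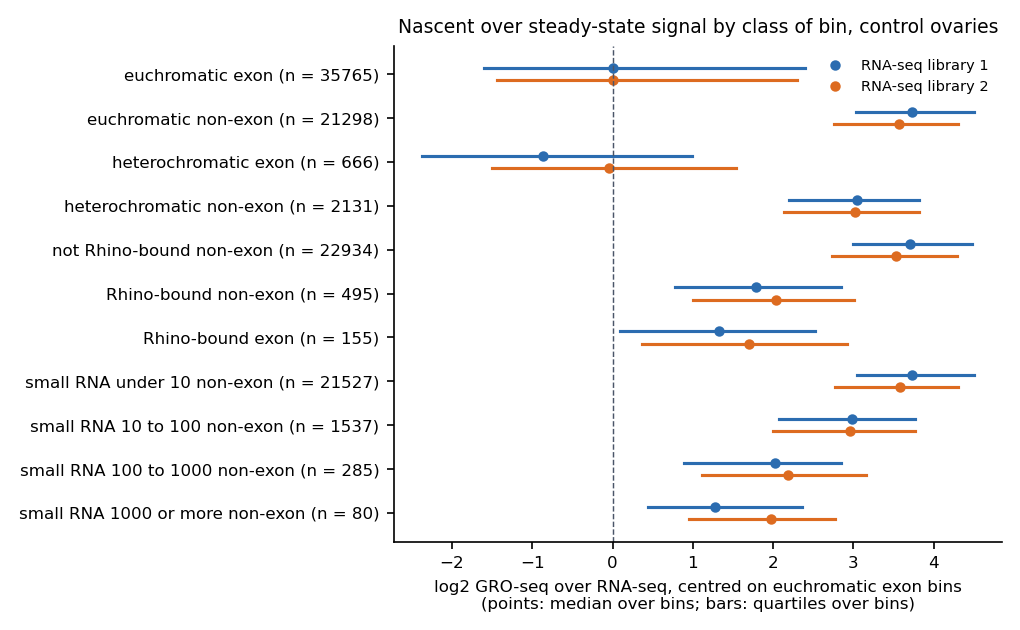
Log2 GRO-seq over RNA-seq, centred on euchromatic exon bins (x axis), by class of bin (rows, with the number of bins), against each RNA-seq library. Points are medians and bars quartiles over bins, not over samples. Non-exon bins lie near 3.7 without Rhino and near 2 with it, and the ratio falls as small RNA rises.

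At equal nascent signal the Rhino-bound bins of euchromatin held more steady-state RNA. Among non-exon bins with a GRO-seq of 2 to 5, the RNA-seq medians were 0.862 and 0.881 in 82 bound bins and 0.136 and 0.286 in 6410 others. At a GRO-seq of 5 to 10 they were 1.06 and 1.12 in 34 bound bins and 0.230 and 0.478 in 5450 others. In heterochromatin the gap was smaller, with 0.330 and 0.463 in 72 bound bins and 0.232 and 0.350 in 466 others at a GRO-seq of 2 to 5. The lowest library of the bound bins was above the highest library of the others in both euchromatic strata, but not in the heterochromatic stratum, where the library values overlapped.

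Exon bins followed another course with rising nascent signal. In euchromatin their RNA-seq medians rose to 21.4 and 23.7 at a GRO-seq of 20 to 50 (4771 bins) and were 16.7 and 20.02 at 50 to 100 (1334 bins). At a GRO-seq of 1000 or more, 30 exon bins had RNA-seq medians of 5.28 and 6.50. In bins without exon or Rhino the RNA-seq medians peaked at 1.17 and 1.86 at a GRO-seq of 50 to 100 and were 0.160 and 0.330 in the 51 bins at 1000 or more. The median RNA-seq was therefore not highest at the highest nascent level in either class. Single bins could be high in both assays, since the 10 bins with the most RNA-seq had a median GRO-seq of 535.8.

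**Figure D4:**
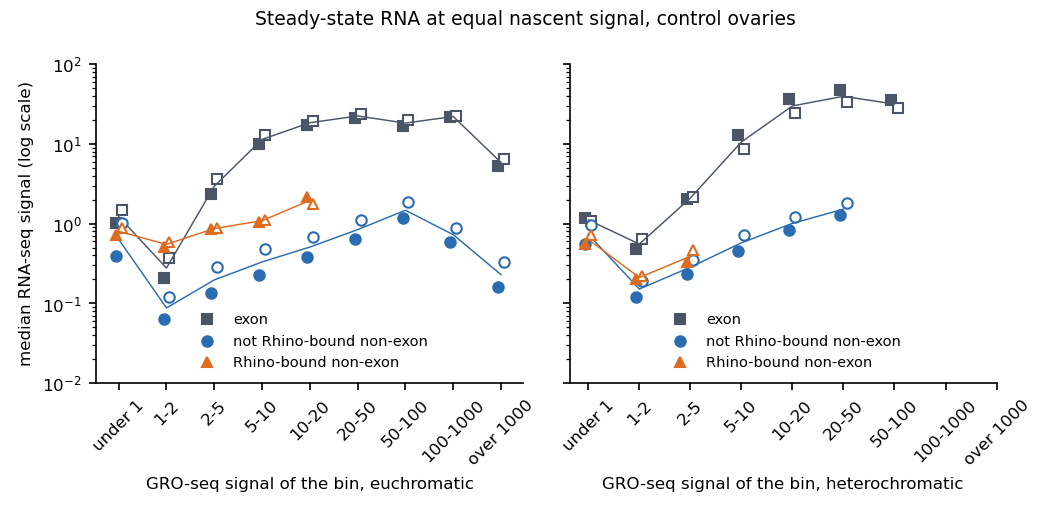
Median RNA-seq signal (y axis, log scale) by GRO-seq signal of the bin (x axis) in euchromatin (left) and heterochromatin (right), for classes with at least 20 bins. Filled symbols are RNA-seq library 1 and open symbols library 2. Rhino-bound euchromatic bins hold 0.862 and 0.881 at a GRO-seq of 2 to 5, above 0.136 and 0.286 in bins without Rhino, and bins under a GRO-seq of 1 were kept only through their RNA-seq signal.

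Small RNA, which in ovaries is largely piRNA, divided the non-exon bins in the same order. The centred ratio was 3.68 at a small RNA signal under 10 (21527 bins), 3.03 at 10 to 100 (1537 bins), 2.19 at 100 to 1000 (285 bins) and 1.70 at 1000 or more (80 bins). In this order the level rule kept 35.6%, 40.1%, 49.4% and 100% of the mappable bins, so the medians describe unlike shares of the classes. Past both thresholds the ratios were 3.30, 2.66, 1.84 and 1.59. The strongest class had ratios of 1.27 and 1.98 against the 2 RNA-seq libraries, both below the 2.02 and 2.19 of the class before it, though its quartiles overlapped. Its median GRO-seq of 5.34 was above the 4.55 of the class with least small RNA, and its RNA-seq of 1.45 and 1.502 was above 0.181 and 0.368. Rhino and small RNA overlapped as classes, since 64 of the 80 bins with the most small RNA were Rhino-bound. Against the mean of the RNA-seq libraries, the order of bound and other bins was not the same in every class of small RNA. Under 10 units the ratio was 2.87 with Rhino (52 bins) and 3.69 without (21475 bins). Within bins of 10 to 100 units it was 1.95 with Rhino (218 bins) and 3.18 without (1319 bins), and within 100 to 1000 units it was 1.90 (161 bins) and 2.48 (124 bins). At 1000 units or more the order was the other way, with 1.87 in the 64 bound bins and 0.81 in the 16 others.

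Among the listed piRNA loci, the balance of nascent and steady-state reads ranged widely. Cluster 42AB (2R 2144001 to 2387000, the largest dual-strand cluster) had 38 mappable bins of 243, all of them kept and none with an exon. Its mean GRO-seq was 8.40 and its mean RNA-seq 3.24 and 2.31. The ratio of reads, each scaled to its library total, was 2.68 (exact 95% interval 2.54 to 2.83) and 3.74 (3.50 to 3.99) against the 2 libraries, between euchromatic exons at 0.65 and 0.62 and euchromatic non-exon sequence at 9.40 and 9.66. The intervals cover counting error only. In single bins the centred log2 ratio of 42AB ran from -1.27 to 6.05, and 4 of its bins were shifted towards nascent RNA.

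The smaller dual-strand clusters rested on single bins. Cluster 38C2 (2L 20104001 to 20117000) had a mean GRO-seq of 28.2 and RNA-seq of 1.01 and 0.955 over 9 bins, 1 of them with an exon. Its read ratio was 31.8 (29.3 to 34.6) and 33.8 (29.6 to 38.7). A single bin at its edge (2L from 20104001) carried a GRO-seq of 169.7, and without it the ratio of summed signals fell from 28.9 to 10.1. Cluster 38C1 (2L 20148001 to 20228000) had read ratios of 10.2 and 11.3, and its ratio of summed signals went from 8.76 to 3.42 without the bin at 20223001. At 80F (3L 23273001 to 23315000) the read ratios were 0.78 and 1.08, near those of exons, but 7 of its 35 bins kept held an exon. Its bin at 23312001 alone had an RNA-seq of 93.0, and without it the ratio of summed signals went from 1.03 to 2.21. The distal cluster of chromosome 4 (1258001 to 1349000) had a mean GRO-seq of 5.19, RNA-seq of 0.495 and 0.663, and ratios of 9.35 and 7.01. Of its 17 bins kept, 7 held an exon.

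Both uni-strand clusters had measurable nascent and steady-state RNA. At flamenco (X 21503001 to 21685000), which is active in somatic follicle cells, 20 of 182 bins were mappable, the mean GRO-seq was 7.15 and RNA-seq was 1.39 and 2.53. Its read ratios of 5.66 (5.24 to 6.11) and 3.11 (2.86 to 3.38) differed between the RNA-seq libraries by more than counting error. Cluster 20A (X 21392001 to 21432000) had a mean GRO-seq of 20.03, RNA-seq of 25.4 and 21.8, and ratios of 0.84 and 0.98 over 7 bins, 1 of them with an exon. Its bin at 21392001 had an RNA-seq of 110.1 and a GRO-seq of 33.6, and without it the ratio of summed signals was 1.92 in place of 0.84. The end of 2L (1 to 10000) had ratios of 9.40 and 14.4, the end of 2R (21136001 to 21147000) 3.26 and 2.67, and the end of 3R had no mappable bin. An exon was held by 3 of the 5 bins kept at the end of 2L and by 5 of the 10 at the end of 2R.

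Over all mappable bins, the read ratio in rhino knockdown was higher than against either control library at 42AB, 38C1 and 38C2. At 42AB the mean GRO-seq was 7.16 against 8.40 in the control, while the mean RNA-seq was 0.816, below both control libraries. The read ratio was 8.40 (7.87 to 8.96) against 2.68 and 3.74 in the control. The mean GRO-seq leaned on few bins, since the control median was 5.81 and the bin at 2381001 alone had 72.7. Across the genome, 64 Rhino-bound non-exon bins had small RNA of 1000 or more, all of them kept. Their median GRO-seq was 5.34 in control and 1.40 in knockdown. The ratio was 81.4 at 38C2 and 37.2 at 38C1, and 9.90 at 38C1 without its bin with the most knockdown RNA-seq signal. In the control, the ratios of both clusters also fell without their bin with the most GRO-seq signal, as given above. The 9.90 is therefore not comparable with the control ratios over all bins, and 81.4 includes the strong edge bin of 38C2. The knockdown ratio was 0.74 at 80F, 5.21 at flamenco and 0.89 at 20A. At the distal cluster of chromosome 4 it was 10.97 (10.1 to 11.9), where the interval overlapped that of the control ratio of 9.35 (8.41 to 10.4). Euchromatic exons had a ratio of 0.61 and euchromatic non-exon sequence 9.93, next to 0.65 and 0.62 and to 9.40 and 9.66 in the control. Since bins were kept by their control signal, a lower value in another library is partly fixed for weak bins, so bound and other non-exon bins were set side by side at the same control GRO-seq. At a control GRO-seq of 2 to 5 the medians of the 154 bound bins were 2.93 in control and 0.618 in knockdown GRO-seq, and those of the 6876 others 3.22 and 3.25. The RNA-seq medians of these bins were 0.721 in control and 0.0593 in knockdown with Rhino, and 0.225 and 0.1397 without. At 5 to 10 the knockdown GRO-seq was 5.53 in 48 bound bins and 6.79 in 5782 others, from control medians of 7.07 and 6.89. Each knockdown value is from 1 library.

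**Figure D5:**
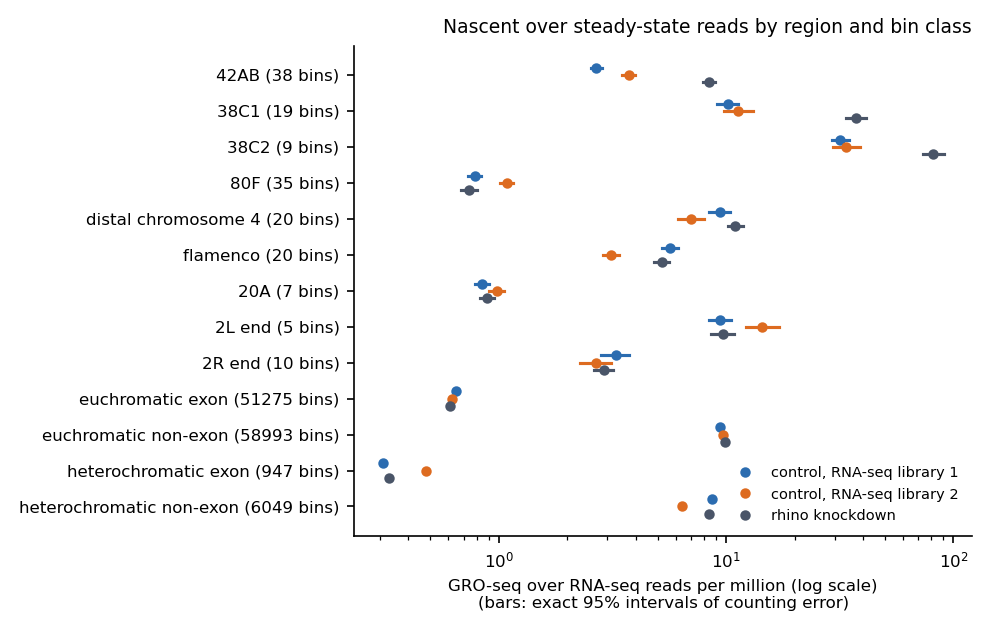
GRO-seq over RNA-seq reads, each scaled to its library total (x axis, log scale), of listed regions and bin classes (rows, with the number of mappable bins) in the control against each RNA-seq library and in rhino knockdown. Bars are exact 95% intervals of counting error and are narrower than the points for the classes. The value of 42AB is 8.40 in the knockdown and 2.68 and 3.74 in the control.

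Nascent signal was concentrated in few bins. The 100 strongest GRO-seq bins held 21.0% of the GRO-seq signal and the 1000 strongest 38.9%. The 100 strongest bins had a median RNA-seq of 0.456, 36.0% of them held an exon and 41.0% had Pol II at or below input. The 100 strongest RNA-seq bins held 15.7% of the RNA-seq signal, 97.0% had an exon, and their median GRO-seq was 128.2.

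Strong nascent bins with and without exons differed in Pol II. Of 808 exon bins with a GRO-seq of at least 100, 709 (87.7%) had Pol II at least 4-fold over input, with RNA-seq medians of 25.0 and 25.8. Of 222 non-exon bins at that level, 85 (38.3%) had such Pol II and 88 (39.6%) had Pol II at or below input. The latter 88 had a median GRO-seq of 485.0, RNA-seq of 0.0770 and 0.177, a centred ratio of 10.999 and a GRO-seq of 489.9 in rhino knockdown. Their median mappability was 0.946, against 1.00 in the strong non-exon bins with high Pol II. The part of mappability in this was not tested, and no gene was assigned to these bins, since no annotation of the dm3 build was used.

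The strongest single nascent bins had Pol II near input or up to 4-fold above it. The highest GRO-seq of any bin was 13246, at 3L 3096001 to 3097000 without an exon, where RNA-seq was 1.24 and 1.85, and Pol II of 11.3 was close to an input of 10.3. In rhino knockdown the same bin had a GRO-seq of 3549. At 3R 3297001 to 3298000 GRO-seq was 9266 and RNA-seq 0.0981 and 0.225, from a bin with a mappability of only 0.512, and Pol II was 19.8 against an input of 9.54. The strongest shifted exon bins were 3R 13445001 to 13446000, with a GRO-seq of 5697, RNA-seq of 0.0741 and 0.173 and Pol II below input, and 2R 17048001 to 17049000, with a GRO-seq of 4007, RNA-seq of 2.99 and 3.91 and Pol II of 51.5 against an input of 12.3. In heterochromatin the strongest shifted bins had Pol II well above input. The bin at 3LHet 2399001 to 2400000 had a GRO-seq of 213.0, RNA-seq of 3.26 and 2.98 and Pol II of 141.2 against 8.40, and the exon bins at 3RHet 1705001 and 2L 22134001 had GRO-seq of 171.0 and 138.1.

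Bins shifted towards steady-state RNA were led by exon bins with high Pol II. The bin at X 5206001 to 5207000 had RNA-seq of 8231 and 3633 in the 2 libraries, a GRO-seq of 105.6 and Pol II of 234.8 against an input of 13.9. The bin at 2R 20791001 to 20792000 had RNA-seq of 7312 and 4338, a GRO-seq of 114.1 and Pol II of 287.7. The libraries differed from each other in both bins, yet the centred log2 ratios were -6.44 and -4.89 in the first and -6.16 and -5.03 in the second. Among bins without an exon, the neighbours at X 3439001 and 3440001 had RNA-seq of 3579 and 3014, and of 2496 and 1414, with Pol II below input in each. The heterochromatic bins without an exon were weaker and less certain. At 3RHet 532001 the RNA-seq libraries gave 13.0 and 60.1, and at 3LHet 688001 they gave 3.81 and 15.8 with no GRO-seq read.

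Neighbouring bins of 1 heterochromatic locus on 2L changed in RNA-seq but little in GRO-seq at an exon border, which did not hold at every border viewed. The non-exon bin at 22426001 had a GRO-seq of 171.3, RNA-seq of 1.24 and 1.84 and a Pol II of 100.4. The exon bin at 22427001 had a GRO-seq of 143.1 and RNA-seq of 856.4 and 786.6, and the exon bin at 22428001 had a GRO-seq of 198.5 and RNA-seq of 1579 and 1340 with a Pol II of 101.2. Nascent signal and Pol II were thus similar on both sides, while RNA-seq differed by more than 100-fold in each library. A second 2L locus, like the first picked after its values were seen, was alike at 1 border only. It had a GRO-seq of 158.1 and RNA-seq of 6.30 and 3.003 in the non-exon bin at 22246001, and a GRO-seq of 154.8 and RNA-seq of 2096 and 1435 in the exon bin at 22247001. At the other border of that exon bin, the non-exon bin at 22248001 had a GRO-seq of 2.51, RNA-seq of 0.101 and 0.121 and a Pol II of 6.46, against a Pol II of 130.0 in the exon bin, so nascent signal and Pol II were lower there as well.

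Bins shifted towards nascent RNA lay in long runs. Joining at least 5 shifted bins with gaps of up to 2 kb gave 1531 stretches that held 68.0% of the shifted bins, with a median length of 11 kb. The longest spanned 158 kb at 3R 4899001 to 5057000, with 147 shifted bins, of which 8 held an exon, a median GRO-seq of 8.87 and a median RNA-seq of 0.425. Bins shifted towards steady-state RNA formed 82 stretches that held 10.3% of their bins, with a median length of 7 kb and a longest of 15 kb. The 2 kinds made up 48.5% and 7.56% of the bins kept, and the more frequent kind forms more and longer runs for that reason alone. Whether the runs exceed this was not tested.

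The 10 stretches with the largest summed GRO-seq were of a different kind from the longest one. The strongest, at 2R 15611001 to 15617000, had 6 bins with GRO-seq from 2.93 to 8697 and mean RNA-seq of 3.03 and 16.05, most of it in a single bin with an RNA-seq mean of 55.6. In these 10 stretches a single bin held between 25.6% and 93.3% of the GRO-seq signal. The most even was 2R 1989001 to 2060000, with 63 shifted bins, a median GRO-seq of 13.0 and mean RNA-seq of 0.511 and 0.872. At 3L 22836001 to 22845000, mean GRO-seq was 772.5 over 6 bins without exon, mean RNA-seq was 0.0238 and 0.0437, and Pol II averaged 5.51 against an input of 10.6. Other strong stretches lay at 3R 13440001 to 13462000, 3R 13470001 to 13486000, 2R 9311001 to 9321000, 2R 13278001 to 13291000, 3R 15615001 to 15620000, 3L 8050001 to 8076000 and 2L 2008001 to 2016000, and the median Pol II over input of the 10 ran from -1.15 to 0.79 on the log2 scale.

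In the 10 strongest steady-state stretches every shifted bin held an exon, as did 98.5% of all bins shifted towards steady-state RNA. Values of a stretch cover its shifted bins, not the bins in its gaps. The first, at X 9945001 to 9955000, had a mean RNA-seq of 732.6 and 903.1 and a mean GRO-seq of 71.9 over 7 bins. At X 14087001 to 14094000 all 7 bins had an RNA-seq mean between 359.0 and 598.7 and a GRO-seq between 19.9 and 53.0, so the excess was carried along the whole stretch. At 2L 10409001 to 10418000 the libraries gave means of 843.2 and 403.3, with a GRO-seq of 54.3. The ratio of summed GRO-seq to RNA-seq in the 10 stretches ran from 0.0613 to 0.141. The others were 3L 11820001 to 11827000, 3R 4760001 to 4768000, 3L 13031001 to 13037000, 2L 16044001 to 16049000, 3R 11147001 to 11159000, 2R 19788001 to 19794000 and 3R 19516001 to 19521000.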

How the data were processed

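The members and lists were chosen with earlier results of these data known. The authors deposited a single table of 1 kb bins on dm3 with decimal commas. The submitters' processing notes name the tools Bowtie 0.12.7, bedtools 2.16.1, SAMtools 0.1.16, cutadapt 1.0 and GSNAP 2013-05-09, with no roles. The deposited signal equalled reads scaled to the inferred library total, divided by mappability, plus 0.1, or plus 0.01 for RNA-seq. Dividing these out gave whole reads, within 0.1 read, in 100% of bins under 500 reads. Strands were not separated, although the labels describe stranded RNA-seq. The deposited column with counts of genomic DNA reads was not used.

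Ratios were log2 of (GRO-seq + 0.1) over (RNA-seq + 0.1), and ChIP over input was computed on log2(value + 1), so folds of weak bins are understated. Intervals are exact Clopper-Pearson intervals at 95%, conditional on the summed reads. Named were the 10 listed regions, the 10 strongest stretches in each direction, and the 2 strongest shifted bins of each direction in 4 classes. The bins around the 2L loci were added after their values were seen. The procedure was tested on simulated data. Python 3.11.15, pandas 2.3.3, NumPy 2.4.6 and SciPy 1.17.1 were used.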

Additional observations from a re-analysis of the deposited data

How the results depend on the processing

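No paired analysis was possible because the control had 1 GRO-seq library, whose replicate number pairs it with no RNA-seq library. Apart from centring on all bins kept, each setting was centred anew on its own euchromatic exon bins, so values past both thresholds are higher here than on the unchanged centre of the report. In the order euchromatic non-exon, heterochromatic non-exon and Rhino-bound non-exon bins (3.68, 3.08 and 1.99 as reported), the centred ratio was 2.10, 1.67 and 1.12 with a pseudocount of 1, and 4.15, 3.65 and 2.34 with thresholds of 2 for GRO-seq or 1 for RNA-seq. It was 0.82, 0.32 and 0.27 with no filter on levels, where most added bins hold few or no reads in either assay, and 1.45, 0.85 and -0.24 when centred on all bins kept, with heterochromatic exon bins at -2.62. With a pseudocount of 0.01 the euchromatic and heterochromatic non-exon values were 4.22 and 3.45. The heterochromatic and Rhino-bound non-exon values were 3.31 and 1.81 at a mappability of at least 0.9, 2.70 and 1.44 with no mappability filter, and 3.21 and 1.75 with input within 2-fold of its median. Past both thresholds, centred anew, the 3 values were 3.71, 3.37 and 2.15, and Rhino-bound bins were at 1.79 with Rhino at 8-fold. Without either RNA-seq library in turn, heterochromatic non-exon bins ranged from 3.02 to 3.05 and Rhino-bound bins from 1.79 to 2.03. Centring on all bins kept moves the zero and so also turned the sign for Rhino-bound euchromatic (-0.44), Rhino-bound heterochromatic (-0.0393) and Rhino-bound exon bins (-0.71), non-exon bins with small RNA of 100 to 1000 (-0.0394) and 1000 or more (-0.53), and chromosome 4 exon bins (-1.57). Exon bins of 3R were at 0.0177 with no filter. Under every setting run, Rhino-bound non-exon bins had the lowest and euchromatic non-exon bins the highest of these 3 medians.

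Bins shifted towards nascent RNA numbered 15759 with a pseudocount of 1, 10353 past both thresholds and 7295 when centred on all bins kept. Bins shifted towards steady-state RNA numbered 2356 past both thresholds, 8185 with no filter, 17825 when centred on all bins kept, 10462 at a 2-fold and 1332 at an 8-fold shift, and 5923 without RNA-seq library 1 and 6966 without library 2. The nascent share of shifted bins was 86.5% as reported and 29.0% when centred on all bins kept. The ratio of the dual-strand clusters together was 3.08, and 4.40 without their strongest RNA-seq bin (in rhino knockdown 4.97 and 10.2). Without bins of GRO-seq at least 100 and Pol II at or below input, an alternative chosen after seeing the data, the euchromatic non-exon ratio was 8.89 in place of 9.91. Pol II over input in euchromatic non-exon bins was -1.13 with a pseudocount of 0.1, and the rho of GRO-seq and RNA-seq was 0.30 past both thresholds. The causes were not tested. Clusters are limited by mappability, and bins near a GRO-seq of 1 by about 7.07 reads.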
